A study of Mus musculus with 18 samples.

Results

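Imprinted genes are expressed mainly or wholly from the copy inherited from 1 parent, and 42 of them were followed in the ventricles of mouse embryos at E14.5, in midgestation. The genes were listed by name, as known imprinted genes or neighbours of imprinted domains, though earlier results of these data were known when the list was made. A transcript was matched for 36 of the 42, and 35 reached the minimum of 0.5 CPM (counts scaled to a common library size) in at least 3 libraries, among 15347 genes that did so. Phlda2, a growth-restraining gene of the placenta, had between 1 and 7 counts in a library and was not tested. H19, Meg3, Rian, Mirg, Snurf and Peg13 were not analysed here. Of the 35 tested genes, 19 are mainly expressed from the paternal copy, 4 from the maternal copy (Cdkn1c, Zim1, Asb4 and Igf2r), and 12 are imprinted in part or only in some tissues. Only the summed RNA of both copies was measured, and nothing here separates the parental copies.

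The study compared embryos lacking Irx3, Irx4 or both, which encode Iroquois homeobox transcription factors of the ventricle. PolyA RNA was sequenced in 18 libraries: 6 labelled Irx3KO_Irx4KO (DKO), 3 labelled Irx3KO, 3 labelled Irx4KO, 3 labelled Irx3het_Irx4het (dHet) and 3 wild-type (WT). The labels give neither the alleles nor the strain. Nor do they tie a library to an embryo, so the p-values rest on a spread between libraries that may be partly technical. The summed level of 4 Y-linked genes was 0.881 CPM in WT 3, 1.10 in DKO 4 and 1.42 in dHet 2, and 97.3 to 299 CPM in the other 15 libraries, so these 3 are not of the same embryo as the other libraries of their groups. The libraries form 2 sets that differ technically: set 1 holds DKO 5, 7 and 10 with WT 1, 2 and 3, and set 2 holds the other 12 libraries, so genotypes were compared only within a set. DKO 5 stood apart from the other DKO libraries of set 1, with a chi-square per gene of 65.8 against DKO 7 and 63.9 against DKO 10, beside at most 28.5 in the other pairs of replicates. All comparisons of DKO with WT are therefore of 3 libraries against 3, and the single knockouts and dHet have no WT in their set.

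Totals ran from 26721576 estimated counts (dHet 4) to 45946741 (DKO 10). In set 1 Irx3 was at 3.15 to 4.27 CPM in DKO and 21.95 to 28.44 CPM in WT, and in set 2 at 3.31 to 3.85 CPM in DKO, 2.58 to 3.13 in Irx3KO, 22.3 to 26.5 in Irx4KO and 12.9 to 13.4 in dHet. Irx4 was higher, not lower, in libraries labelled as lacking it: in set 1 it was at 215 to 279 CPM in DKO and 78.4 to 125 CPM in WT, and in set 2 at 222 to 236 CPM in DKO, 136 to 158 in Irx3KO, 217 to 240 in Irx4KO and 177 to 191 in dHet. How Irx4 was altered is not in the labels, and its count is therefore no check of them, and Irx4KO and DKO mean libraries so labelled. The 9 cardiomyocyte markers summed to 25890 to 28520 CPM in DKO and 24260 to 25230 CPM in WT of set 1, without overlap. Between these groups 8 of the 9 log2 fold changes were above 0 (median 0.17, beside 0.00 over all genes). In set 2 the sums overlapped, at 25150 to 27830 CPM in DKO and 25050 to 27900 in Irx3KO. They were 26210 to 28020 CPM in Irx4KO and 26460 to 29950 in dHet. The departure of a library from the gene means followed transcript length, with a Spearman's rho across 15347 genes of -0.46 to -0.25 in set 1 and 0.05 to 0.41 in set 2. In set 2 the DKO libraries were lowest (0.05, 0.22 and 0.12 in DKO 2, 3 and 4). Within the sets, log2 fold changes also followed length, with rho of -0.18 in DKO against WT and -0.20 in DKO against Irx3KO. It was -0.18 in Irx4KO and DKO against Irx3KO and dHet. Removal of the length trend was among the alternatives. Between DKO of set 1 and DKO of set 2, 20.5% of all genes and 10 of the 35 imprinted genes differed (edgeR, adjusted p below 0.05), among them Ube3a, Mest and Zim1, lower in set 1 by 1.25, 1.12 and 0.88 on the log2 scale. Levels are therefore not set side by side across sets.

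In mammals, many paternally expressed genes promote growth before birth and many maternally expressed genes restrain it. Imprinting is set by DNA methylation laid down in the egg or sperm at control regions, which are often rich in CpG and can lie at the promoter of the gene itself, as at Peg3 and Plagl1. Several imprinted genes, Plagl1, Igf2, Dlk1, Cdkn1c and Peg3 among them, are active in fetal tissues and are turned down after birth, and Igf2 is a mitogen of the embryonic ventricular wall.

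The promoters of the genes whose differences are described below are shown because CpG content is what the methylation marks act on. Each is the RefSeq window (GRCm38.p6) of 250 bases before to 50 bases after a transcription start, 5′ to 3′ on the gene's own strand, with every CpG in capitals. Peg3 is at chr7:6730370-6730669 (minus strand), Zim1 at chr7:6696383-6696682 (minus strand), Plagl1 at chr10:13090582-13090881 (plus strand) and Dlk1 at chr12:109452573-109452872 (plus strand).
Peg3: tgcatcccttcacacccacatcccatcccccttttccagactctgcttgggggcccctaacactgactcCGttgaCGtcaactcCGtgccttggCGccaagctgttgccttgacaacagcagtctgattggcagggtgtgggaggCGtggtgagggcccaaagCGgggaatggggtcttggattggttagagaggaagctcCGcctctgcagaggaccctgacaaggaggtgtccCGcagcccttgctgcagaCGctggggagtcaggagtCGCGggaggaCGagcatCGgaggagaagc
Zim1: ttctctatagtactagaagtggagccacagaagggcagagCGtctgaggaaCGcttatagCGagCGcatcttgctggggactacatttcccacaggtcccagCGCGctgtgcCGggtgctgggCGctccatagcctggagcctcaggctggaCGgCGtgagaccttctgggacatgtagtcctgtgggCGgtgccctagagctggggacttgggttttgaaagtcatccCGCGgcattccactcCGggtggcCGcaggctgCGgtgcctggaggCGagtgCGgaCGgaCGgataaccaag
Plagl1: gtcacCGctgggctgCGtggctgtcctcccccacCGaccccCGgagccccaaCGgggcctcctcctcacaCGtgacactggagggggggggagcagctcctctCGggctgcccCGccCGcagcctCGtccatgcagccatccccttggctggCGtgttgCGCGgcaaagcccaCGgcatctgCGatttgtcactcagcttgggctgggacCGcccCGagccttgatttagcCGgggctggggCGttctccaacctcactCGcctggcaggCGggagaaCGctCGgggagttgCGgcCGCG
Dlk1: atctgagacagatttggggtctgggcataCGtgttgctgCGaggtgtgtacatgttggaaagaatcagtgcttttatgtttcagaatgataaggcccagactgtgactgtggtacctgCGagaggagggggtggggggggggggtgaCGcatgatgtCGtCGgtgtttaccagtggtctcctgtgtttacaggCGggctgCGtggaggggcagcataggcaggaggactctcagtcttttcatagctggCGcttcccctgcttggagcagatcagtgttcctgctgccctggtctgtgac
The Plagl1 window holds 26 CpG, Zim1 20, Peg3 13 and Dlk1 9. The window of Usp29, which is read away from Peg3 on the opposite strand, shares 263 of its 300 bases with that of Peg3. Over the 50 windows of 34 listed genes the median was 15.5 CpG, and 70.0% held at least 10, against a median of 7 and 43.5% over all 32851 windows. Some of the 50 overlap, as alternative starts of 1 gene do. The letters ACANNTGT, bound by Iroquois proteins in the fly and the same on both strands, were in none of the 50 windows and in 7.38% of all windows, which says only that these letters are not in these windows. Sgce has no window here.

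Imprinted genes covered the whole range of expression in WT ventricle. In TPM, the share of a library after scaling for transcript length, Igf2, the fetal growth factor, was at 2016 ± 213 (SD, n = 3), above 99.77% of the tested genes. Gnas, which encodes the stimulatory G protein alpha subunit, followed at 1237 ± 80.6 TPM, and Mest, a membrane hydrolase of mesoderm, at 494 ± 72.5 TPM. The ranges of Igf2, Gnas and Mest in the WT libraries did not overlap each other.

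The tetraspanin gene Cd81 (408 TPM), whose range overlapped that of Mest, was ahead of the zinc finger factor Plagl1 (380 TPM). Plagl1, the cyclin-dependent kinase inhibitor Cdkn1c (343 TPM) and Igf2r (331 TPM), the receptor that clears Igf2, stood next, and each overlapped its neighbour in the order. A middle group from Peg3 (75.2 ± 4.07 TPM) and Ndn (74.1 TPM) through Copg2, Airn, Dlk1 (63.4 ± 15.5 TPM) and H13 to Nnat (54.8 TPM) followed, in which each gene overlapped the next in the order. Sgce was at 37.8 ± 1.154 TPM and Zim1 at 19.2 ± 2.15 TPM. The lowest were Rtl1 (0.465 TPM), Magel2 (0.361 TPM) and Slc22a3 (0.242 TPM), whose counts were few: Slc22a3 had 10 to 35 counts in a library.

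**Figure D1:**
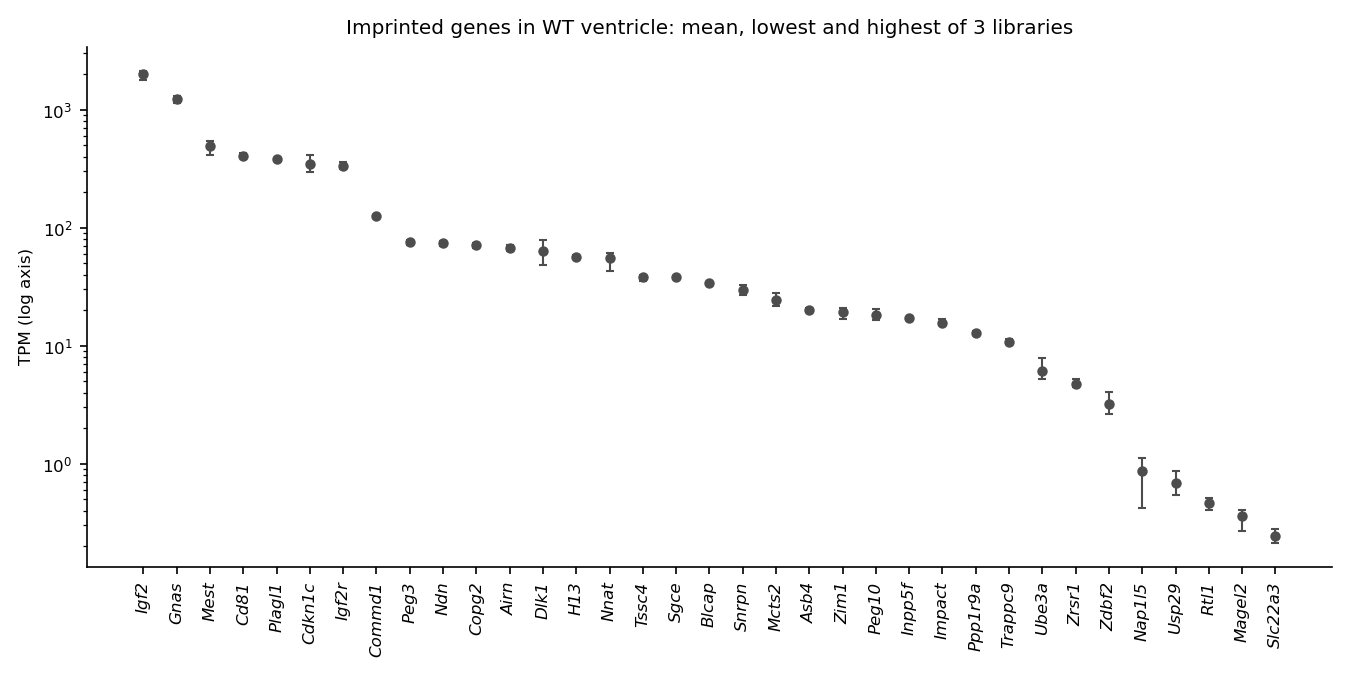
Level of the 35 tested imprinted genes in WT ventricle, in TPM on a log axis, in falling order; points are means and bars reach from the lowest to the highest of 3 libraries. Igf2 stands at 2016 TPM and Slc22a3 at 0.242 TPM.

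Replicates of a group differed little for most of these genes. The within-group coefficient of variation of CPM had a median of 8.775% over the 35 genes and 10.03% over all tested genes. It was lowest for Cd81 (2.22%) and Sgce (2.84%, the gene of epsilon-sarcoglycan, a muscle membrane protein) and highest for Nap1l5 (28.6%) and Slc22a3 (25.99%).

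DKO was compared with WT in set 1 to ask which genes differ when both factors are lost. Peg3 and Sgce rose and Dlk1 fell in DKO, so that 3 of 35 imprinted genes passed (8.57%), beside 1.58% of all tested genes (105 higher and 138 lower). All adjusted p-values of differences are from edgeR's quasi-likelihood test with Benjamini-Hochberg adjustment over 15347 genes unless another tool is named, and differences are log2 fold changes ± SE. All 3 are paternally expressed, and none of the 4 maternally expressed or 12 partly imprinted genes passed by edgeR, while DESeq2 called Zim1 and Cd81 besides the 3, and limma-voom called Peg3 and Zim1. Over the 35 genes, 23 fold changes were above 0, with a median of 0.08, beside 0.00 over all genes. A fit of only the 6 libraries of set 1 called none of the 3, with adjusted p-values of 0.295 for Dlk1, 0.297 for Peg3 and 0.417 for Sgce, against 13 genes in all. Without DKO 5, 4 imprinted genes passed (Peg3, Sgce, Zim1 and Blcap) and Dlk1 did not (adjusted p = 0.0571), beside 597 genes in all.

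In set 2, DKO differed from Irx3KO in 1 of 35 genes (2.86%, Sgce, higher), beside 0.45% of all genes. No imprinted gene passed in the other 5 comparisons by edgeR. These were DKO against dHet (0.0977% of all genes passed, and 5 imprinted genes had an unadjusted p below 0.05), Irx3KO against dHet (0.00652%, 2 genes), Irx4KO against dHet (0.013%, 4 genes), DKO against Irx4KO (0.0261%, 1 gene) and Irx3KO against Irx4KO (0.306%, 10 genes). Over all genes, the shares with an unadjusted p below 0.05 were 9.98%, 4.22%, 5.46%, 5.9% and 8.87%, in the same order. For the 5, DESeq2 called 2, 0, 0, 0 and 5 imprinted genes and limma-voom 0, 0, 0, 0 and 9.

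**Figure D2:**
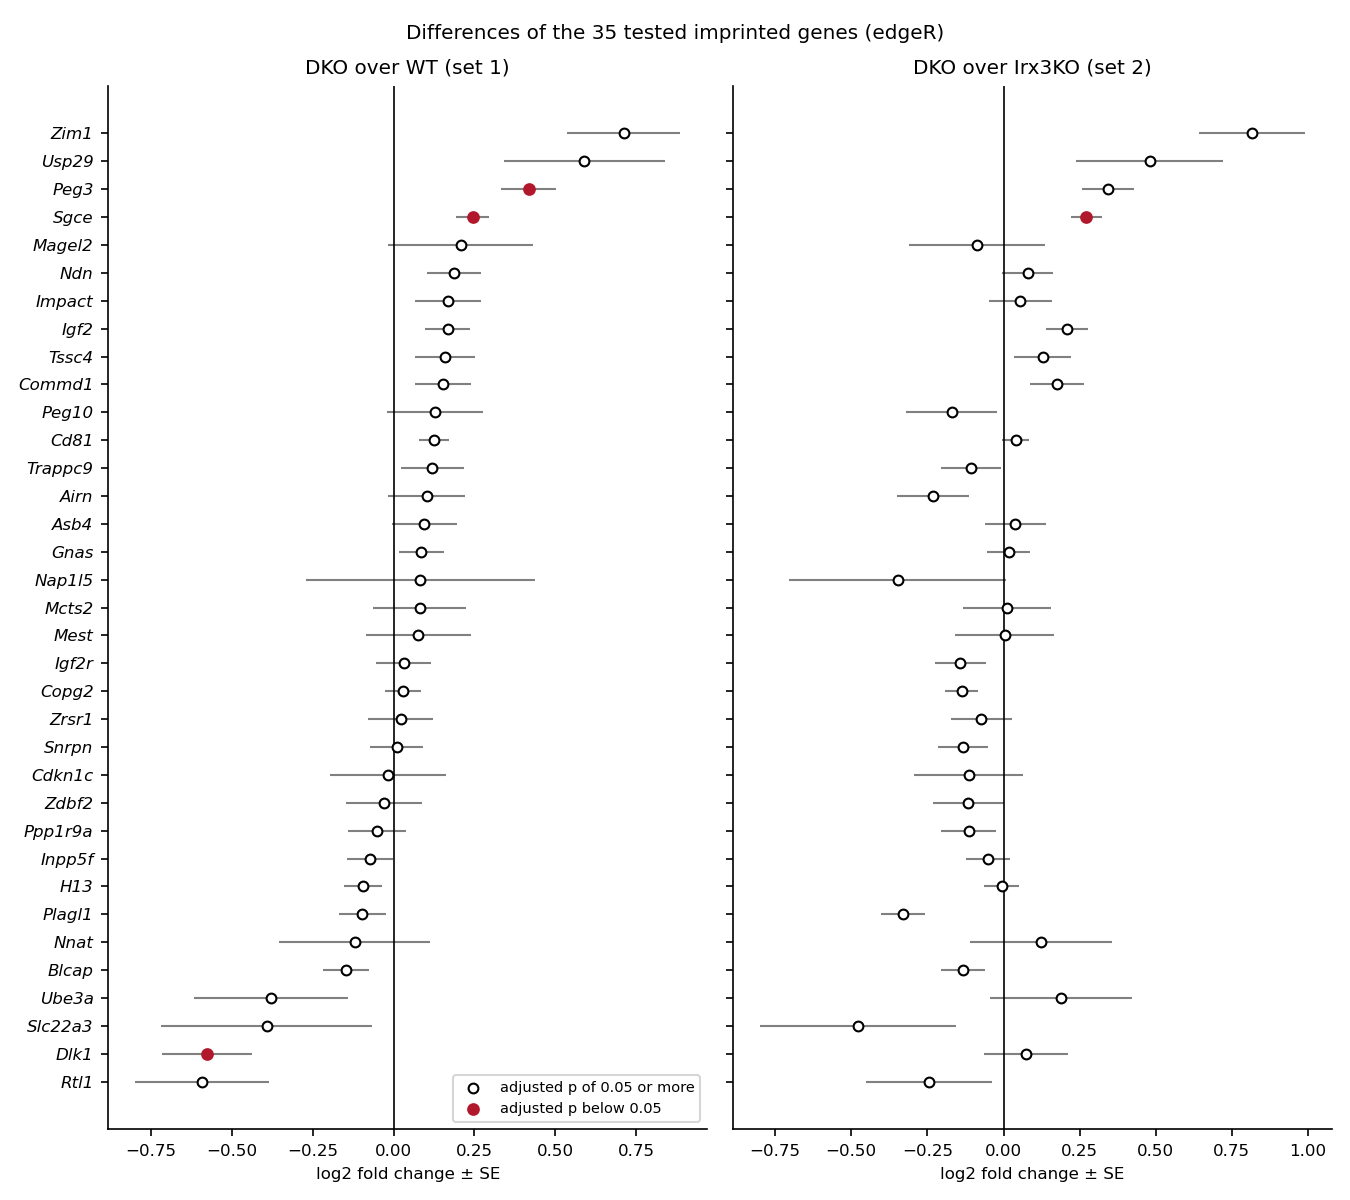
Log2 fold changes ± SE of the 35 tested imprinted genes in DKO over WT (left, set 1) and DKO over Irx3KO (right, set 2), in the order of the left panel; filled points passed an adjusted p of 0.05. Zim1, Usp29, Peg3 and Sgce lie at the upper end of both panels, which share no library, while Dlk1 is low at left and near 0 at right.

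Several of these genes were at separate levels in set 2 with and without a homozygous Irx4 label, so the 6 Irx4KO and DKO libraries were also set against the 6 Irx3KO and dHet libraries, a comparison chosen after these values were seen and made from the same libraries. Sgce and Zim1 were higher and Plagl1 was lower with the homozygous Irx4 label, 3 of 35 genes (8.57%) beside 0.893% of all genes. The 6 Irx3KO and DKO libraries against the 6 Irx4KO and dHet libraries gave 0 imprinted genes by edgeR, DESeq2 and limma-voom. By edgeR 0.0261% of all genes passed, and 2 of the 35 imprinted genes and 7.55% of all genes had an unadjusted p below 0.05. In the test of whether the difference of DKO from Irx3KO was unlike that of Irx4KO from dHet, edgeR called 0 genes, with 420 genes and 0 imprinted genes at an unadjusted p below 0.05.

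Peg3, a zinc finger protein of the paternal copy with roles in growth and cell death, was higher in DKO than in WT. It was at 579, 593 and 737 CPM in DKO 5, 7 and 10, against 501, 494 and 434 CPM in WT 1, 2 and 3. The groups did not overlap, and DKO 10 stood above the other DKO libraries. The means were 636 ± 87.6 CPM in DKO and 476 ± 36.6 CPM in WT (SD, n = 3 each), a log2 fold change of 0.42 ± 0.085 (adjusted p = 0.0189). Without WT 3, the WT library with the low Y-linked level, the adjusted p was 0.093, and with sex as a covariate it was 0.0326.

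In set 2, which shares no library with set 1, Peg3 was lowest in Irx3KO. It was at 852, 811 and 845 CPM in DKO 2, 3 and 4, at 657, 690 and 631 CPM in Irx3KO 1, 2 and 4, at 863, 831 and 846 CPM in Irx4KO 2, 3 and 4, and at 844, 743 and 728 CPM in dHet 2, 3 and 4. All Irx3KO libraries were below all others of the set, and dHet 2 was within the range of DKO and Irx4KO. By edgeR Peg3 did not pass in DKO against Irx3KO (0.34 ± 0.085, adjusted p = 0.119) or in Irx3KO against Irx4KO (-0.36 ± 0.085, adjusted p = 0.0801), while DESeq2 and limma-voom called it in both.

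Zim1, a maternally expressed zinc finger gene, is the neighbour of Peg3 on chromosome 7, with starts 33981 bases apart on the same strand. It was at 49.5, 79.6 and 102 CPM in DKO 5, 7 and 10, against 42.4, 49.0 and 49.9 CPM in WT 1, 2 and 3. DKO 5 was inside the WT range, and the difference did not pass (0.71 ± 0.17, adjusted p = 0.0568). The call depended on the test, as limma-voom and DESeq2 both made it.

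In set 2, Zim1 was higher with the homozygous Irx4 label. It was at 146, 136 and 145 CPM in DKO, at 81.4, 84.8 and 76.1 CPM in Irx3KO, at 140, 149 and 148 CPM in Irx4KO and at 117, 106 and 95.5 CPM in dHet. Every dHet library was above every Irx3KO library and below every DKO and Irx4KO library, and DKO and Irx4KO overlapped. With the homozygous Irx4 label Zim1 was at 144 ± 5.11 CPM, against 93.4 ± 15.6 CPM in Irx3KO and dHet (SD, n = 6 each; 0.64 ± 0.12, adjusted p = 0.0226). The call held when DKO 3, Irx4KO 2 or dHet 2 was left out, and was lost without any 1 of the other 9 libraries (adjusted p = 0.0521 to 0.0674). The pairwise differences of DKO from Irx3KO (0.82 ± 0.17, adjusted p = 0.0605) and of Irx3KO from Irx4KO (-0.85 ± 0.17, adjusted p = 0.0571) did not pass by edgeR, while DESeq2 and limma-voom called both. Against dHet, none of DKO (0.42 ± 0.17, adjusted p = 0.422), Irx3KO (-0.39 ± 0.17, adjusted p = 1.0) and Irx4KO (0.46 ± 0.17, adjusted p = 0.771) passed by edgeR, so the place of dHet between the others is a description.

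Usp29, a ubiquitin protease gene of the paternal copy, starts 147 bases from Peg3 on the other strand. It was at 1.45, 1.91 and 2.31 CPM in DKO 5, 7 and 10 and at 1.62, 1.19 and 0.952 CPM in WT, with overlap (0.59 ± 0.25, adjusted p = 0.282). Its counts were few, 40 to 108 in a library, and its SE was the widest of the 3 genes of the domain.

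**Figure D3:**
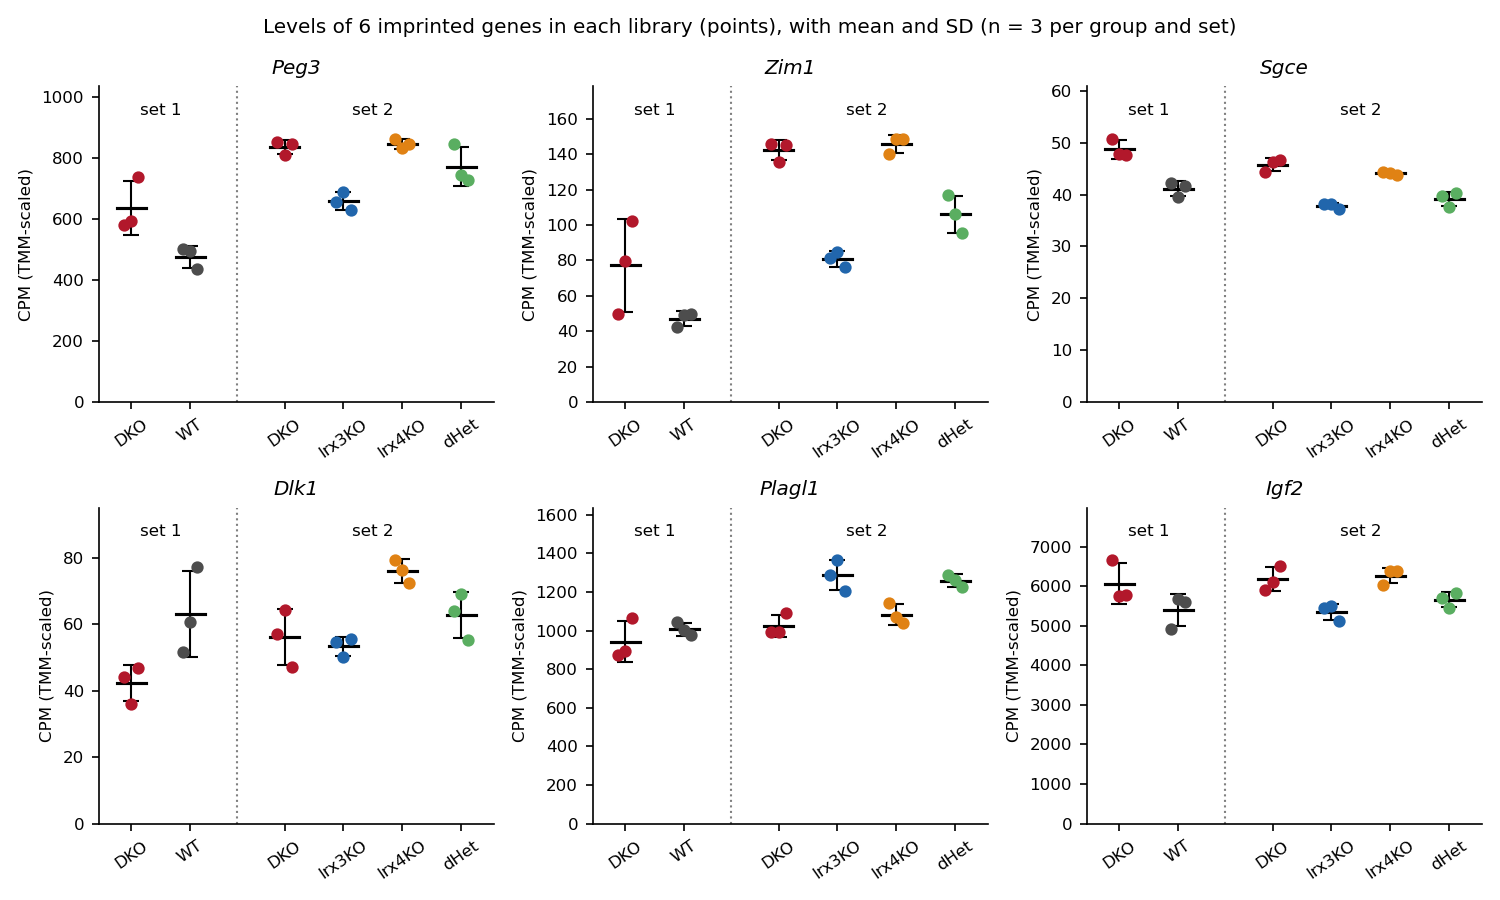
CPM of Peg3, Zim1, Sgce, Dlk1, Plagl1 and Igf2 in each library (points) with the mean (bar) and SD (whiskers, n = 3), set 1 left and set 2 right of the dotted line. Irx3KO libraries are the lowest of set 2 for Peg3 and Zim1, and DKO and Irx4KO libraries are the highest for Zim1 and Sgce.

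Sgce is paternally expressed and its deficiency causes myoclonus-dystonia in humans. It was at 50.8, 47.8 and 47.6 CPM in DKO 5, 7 and 10, against 42.2, 39.5 and 41.7 CPM in WT, without overlap. The mean was 48.7 ± 1.78 CPM in DKO and 41.1 ± 1.42 CPM in WT (0.24 ± 0.052, adjusted p = 0.0219), so the fold was 1.18. The call was lost without WT 1 (adjusted p = 0.0596), WT 2 (0.0747) or WT 3 (0.0599).

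In set 2, Sgce was at 44.4, 46.2 and 46.7 CPM in DKO, 38.2, 38.3 and 37.3 CPM in Irx3KO, 44.4, 44.1 and 43.9 CPM in Irx4KO and 39.6, 37.5 and 40.3 CPM in dHet. The 6 DKO and Irx4KO libraries were all above the 6 others. Against Irx3KO, Sgce was higher in DKO by 0.27 ± 0.052 (adjusted p = 0.027), a call that was lost when any 1 of the 6 libraries was left out (adjusted p = 0.0582 to 0.135) and with sex as a covariate (0.0758). With the homozygous Irx4 label it was at 44.9 ± 1.201 CPM, against 38.5 ± 1.19 CPM (SD, n = 6 each; 0.22 ± 0.037, adjusted p = 0.00657), and this passed in all 23 alternatives tried. Peg10, a retrotransposon-derived gene of the paternal copy that starts 99 bases from Sgce on the opposite strand, did not follow: its log2 fold changes were 0.13 ± 0.15 in DKO against WT (adjusted p = 0.754) and -0.17 ± 0.15 in DKO against Irx3KO (adjusted p = 0.885). Whether the response of Sgce differs from that of Peg10 was not tested.

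Dlk1 on chromosome 12 fell in DKO in set 1. Dlk1, a membrane protein that keeps progenitor cells undifferentiated, was at 44.0, 36.05 and 46.75 CPM in DKO 5, 7 and 10, against 51.5, 60.5 and 77.1 CPM in WT 1, 2 and 3. All DKO libraries were below all WT libraries, and the WT libraries were spread more widely. The means were 42.3 ± 5.56 CPM in DKO and 63.1 ± 12.98 CPM in WT, and Dlk1 fell by 0.58 on the log2 scale (SE 0.14, adjusted p = 0.0462). It lost the call without DKO 5 (0.0571), DKO 7 (0.158), WT 2 (0.0799) or WT 3 (0.207), and in 11 of 16 alternatives in all, among them the sex covariate (0.0987).

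In set 2, Dlk1 was at 57.0, 64.1 and 47.2 CPM in DKO, 54.59, 50.004 and 55.38 CPM in Irx3KO, 79.2, 76.4 and 72.2 CPM in Irx4KO and 63.9, 69.1 and 55.3 CPM in dHet. Irx4KO libraries were above all others of the set, and the other 3 groups overlapped. None of these differences passed by edgeR: DKO against Irx4KO was at -0.44 ± 0.14 (adjusted p = 0.699) and Irx3KO against Irx4KO at -0.51 ± 0.14 (adjusted p = 0.164), and DESeq2 and limma-voom called the second of these. Rtl1, a retrotransposon-derived gene of the same domain needed in the placental vessels, was at 1.35, 1.59 and 1.38 CPM in DKO and 1.94, 2.22 and 2.33 CPM in WT of set 1. The groups did not overlap, but the difference did not pass (-0.59 ± 0.21, adjusted p = 0.185).

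Plagl1, which in mouse activates Igf2, Cdkn1c and other imprinted genes, was lower with the homozygous Irx4 label in set 2. It was at 993, 993 and 1089 CPM in DKO, 1291, 1365 and 1207 CPM in Irx3KO, 1144, 1069 and 1038 CPM in Irx4KO and 1290, 1260 and 1224 CPM in dHet. The 6 DKO and Irx4KO libraries were all below the 6 others, at 1054 ± 58.6 CPM against 1273 ± 56.6 CPM (SD, n = 6 each; -0.27 ± 0.052, adjusted p = 0.0179). Without DKO 2 the adjusted p was 0.0505, without Irx3KO 2 it was 0.0577 and without Irx4KO 4 it was 0.0542. By edgeR the pairwise differences did not pass, among them DKO against Irx3KO (-0.33 ± 0.073, adjusted p = 0.0661). DESeq2 and limma-voom called Plagl1 in DKO against Irx3KO and in Irx3KO against Irx4KO, and DESeq2 also in DKO against dHet. In set 1 Plagl1 was at 872, 892 and 1063 CPM in DKO and 1044, 1001 and 978 CPM in WT, with overlap (-0.10 ± 0.073, adjusted p = 0.591).

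Some cell type markers differed in these comparisons. The 8 atrial markers, of which the atrial light chain genes Myl7 (0.94) and Myl4 (0.42) and the lipid transfer gene Stard10 (1.16) were higher in DKO than in WT by edgeR, as was the myosin gene Myh6 (0.65) of the cardiomyocyte list, summed to 2512 to 2772 CPM in DKO and 1570 to 2076 CPM in WT. In set 2 they summed to 1873 to 2160 CPM in DKO, 1661 to 1687 in Irx3KO, 1722 to 1836 in Irx4KO and 1426 to 1663 in dHet, so that all 6 libraries with a homozygous Irx4 label were above the 6 others, and Stard10 was higher with that label by edgeR (0.67 ± 0.13, adjusted p = 0.0192). The atrial list did not move as 1: log2 fold changes were above 0 for 6 of the 8 in DKO against WT (lowest -0.32). With the homozygous Irx4 label they were above 0 for 5 of the 8 (lowest -0.60). Over the 18 libraries Myl4 averaged 1411 CPM and Myl7 408 CPM, and no other atrial marker more than 35.01 CPM, so the sums are mainly those of Myl4 and Myl7. The atrial marker Fgf12 and the macrophage marker Ptprc were at 0 in at least 1 library.

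Of 7 macrophage markers 6 were tested, and they summed to 49.99 to 76.87 CPM in DKO and 74.1 to 131 CPM in WT, with overlap. The lysozyme gene Lyz2 of that list was lower by edgeR in DKO than in WT (-1.49 ± 0.30, adjusted p = 0.0204), in DKO than in Irx3KO (-1.55 ± 0.30, adjusted p = 0.0419) and with the homozygous Irx4 label (-1.06 ± 0.21, adjusted p = 0.0293), and its near-identical copy Lyz1 makes its count uncertain. Of the 6 macrophage markers, 0 had a log2 fold change above 0 in DKO against WT (median -0.26). In DKO against Irx3KO 2 of the 6 did (median -0.12), and with the homozygous Irx4 label 4 of the 6 (median 0.03). The 9 erythroid markers had a median log2 fold change of -0.62 in DKO against WT. None was called by edgeR, DESeq2 or limma-voom, and 2 had an unadjusted p below 0.05 by edgeR, beside 14.4% of all genes. These 9 markers summed to 3714 to 6763 CPM in DKO and 5572 to 7976 CPM in WT. In set 2 the macrophage markers summed to 42.7 to 48.6 CPM in DKO, 59.8 to 66.4 in Irx3KO, 45.3 to 54.2 in Irx4KO and 47.4 to 58.6 in dHet, and the erythroid markers to 4326 to 6498 CPM in DKO, 6414 to 8149 in Irx3KO, 4397 to 9027 in Irx4KO and 4454 to 5486 in dHet. The 13 epicardial and mesenchymal markers summed to 3800 to 4665 CPM in DKO and 3742 to 5215 CPM in WT of set 1. In set 2 they summed to 5002 to 5886 CPM in DKO, 5180 to 5415 in Irx3KO, 5722 to 6851 in Irx4KO and 4866 to 5805 in dHet. With the homozygous Irx4 label all 13 log2 fold changes were above 0 (median 0.15, beside 0.00 over all genes). There 0 passed by edgeR, 3 had an unadjusted p below 0.05, beside 10.8% of all genes, and DESeq2 called Postn. All 13 were also above 0 in Irx4KO against dHet (median 0.26), and 8 of the 13 in DKO against WT. Of 9 neural crest and neuron markers 7 were tested, and they summed to 29.1 to 33.4 CPM in DKO and 24.7 to 27.7 CPM in WT. Of these only the neurofilament gene Nefl was called in DKO against WT by edgeR (1.23 ± 0.18, adjusted p = 0.00223). The neural list did not move as 1: log2 fold changes were above 0 for 5 of the 7 (median 0.09, lowest -0.83). The 2 tested of 7 liver markers summed to 0.215 to 1.07 CPM in DKO and 1.16 to 1.28 CPM in WT. The 6 smooth muscle and pericyte markers summed to 387.6 to 432.4 CPM in DKO and 368.9 to 384.2 CPM in WT of set 1, without overlap. Yet only 2 of their 6 log2 fold changes were above 0 there (median -0.08), and 0 passed by edgeR. In set 2 their sums were 404.9 to 504 CPM in DKO, 405 to 474.6 in Irx3KO, 471.9 to 493.6 in Irx4KO and 431.3 to 476.5 in dHet. Endothelial markers summed to between 1119 and 1357 CPM in every group. The part of these cell types in the differences of Peg3, Zim1, Sgce, Dlk1 and Plagl1 was not tested, and fewer cells of a type and less RNA per cell cannot be told apart in ventricle RNA.

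The growth factor Igf2 did not pass by edgeR in any comparison, though limma-voom called it in Irx3KO against Irx4KO. It was at 6659, 5756 and 5773 CPM in DKO 5, 7 and 10, against 4923, 5676 and 5602 CPM in WT (0.17 ± 0.069, adjusted p = 0.272). The groups did not overlap, though DKO 7 and WT 2 were close. In set 2 it was at 5916, 6120 and 6520 CPM in DKO, 5454, 5497 and 5122 CPM in Irx3KO, 6039, 6390 and 6374 CPM in Irx4KO and 5692, 5451 and 5830 CPM in dHet. All DKO and Irx4KO libraries were above all Irx3KO and dHet libraries, at 0.18 ± 0.049 (adjusted p = 0.109 by edgeR), a difference that DESeq2 and limma-voom called.

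Cdkn1c, which stops the cell cycle and acts against Igf2 on growth, varied among replicates, at 543, 333 and 417 CPM in DKO and 388, 523 and 399 CPM in WT of set 1 (-0.02 ± 0.18, adjusted p = 0.981). In set 2 it was at 331, 334 and 464 CPM in DKO, 436, 456 and 330 CPM in Irx3KO, 294, 293 and 292 CPM in Irx4KO and 338, 307 and 376 CPM in dHet. The Irx4KO libraries were below all others and nearly equal, and Irx3KO against Irx4KO (0.48 ± 0.18, adjusted p = 0.412) did not pass by edgeR, while limma-voom called it. Igf2r averaged 2147 ± 251 CPM in DKO and 2102 ± 158 CPM in WT (0.03 ± 0.084, adjusted p = 0.912), with a 95% interval of the difference of -0.13 to 0.20. In set 2, limma-voom alone called Igf2r and Copg2 in Irx3KO against Irx4KO.

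Of 16 listed genes of the IGF pathway (the ligand Igf1, its receptors, adaptors, binding proteins and the Igf2 mRNA-binding proteins), 14 were tested and none passed by edgeR in any of the 7 comparisons. At most 2 of the 14 had an unadjusted p below 0.05 in a comparison, beside 4.22% to 14.4% of all genes over the 7 comparisons. DESeq2 called the insulin receptor Insr in DKO against dHet, and limma-voom called Igf2bp2 and Irs2 in Irx3KO against Irx4KO. With the homozygous Irx4 label 0 of the 14 passed by edgeR, and 3 had an unadjusted p below 0.05, beside 10.8% of all genes. In that comparison DESeq2 called Insr, and limma-voom called Insr and Irs2. The 16 tested of 17 G1 cyclins, kinases and inhibitors had none by edgeR in any comparison. In DKO against WT 6 of the 16 had an unadjusted p below 0.05 by edgeR, beside 14.4% of all genes, and DESeq2 called Ccnd1.

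None of the remaining imprinted genes passed by edgeR in the 7 comparisons or in the 2 that pool groups. Gnas averaged 1473 ± 187 CPM in DKO and 1388 ± 89.5 CPM in WT (0.09 ± 0.070, adjusted p = 0.628). Mest (0.08 ± 0.16, adjusted p = 0.881), the neuronal growth suppressor Ndn (0.19 ± 0.084, adjusted p = 0.316) and the splicing gene Snrpn (0.01 ± 0.081, adjusted p = 0.979) are other examples in DKO against WT. Cd81 was higher in all DKO libraries (416, 416 and 389 CPM) than in all WT libraries (367, 369 and 384 CPM), but its difference did not pass by edgeR (0.12 ± 0.046, adjusted p = 0.212), while DESeq2 called it.

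**Figure D4:**
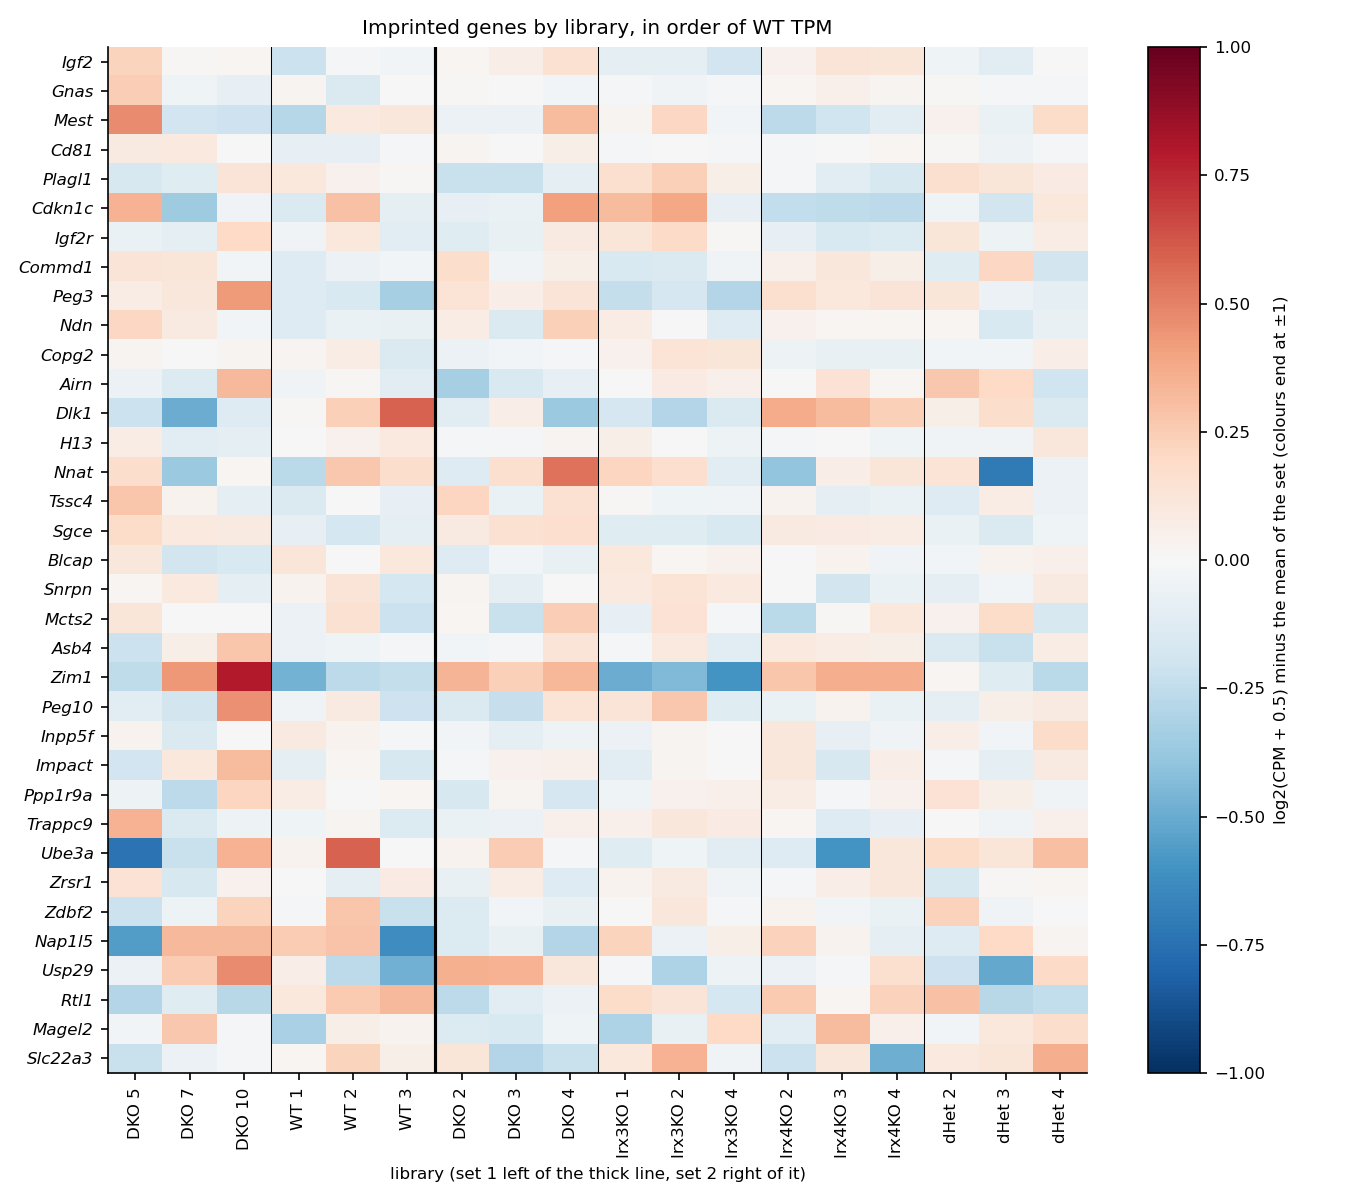
Heat map of log2(CPM + 0.5) minus the mean of the set for the 35 tested imprinted genes (rows, in order of WT TPM) in the 18 libraries (columns); red is above and blue below the mean, and colours end at ±1. Zim1 separates DKO and Irx4KO from Irx3KO in set 2, and most rows are near white, with single libraries standing out for Nnat, Ube3a and Nap1l5.

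Several imprinted genes lie inside or across another gene, and the strand setting of the counting is not given in the sources used here, so opposite-strand reads of such pairs cannot be told apart. By GENCODE M21, Nnat lies in Blcap, Zrsr1 in Commd1 and Nap1l5 in Herc3, each on the opposite strand, Mcts2 lies in H13 on the same strand, and Airn overlaps Igf2r by 28354 bases on the opposite strand. Mcts2, Zrsr1 and Nap1l5 are retrocopies that share sequence with Mcts1, Zrsr2 and Nap1l1, so their counts are uncertain. H13 transcripts that end upstream of Mcts2, which in mouse come mainly from the copy on which Mcts2 is active, held 21.05% of H13 counts over the 18 libraries (16.6% to 23.2%). Of Gnas counts, 97.37% came from the downstream starts that give the G protein alpha subunit in most tissues, and 2.21% from transcripts starting upstream. The most abundant Igf2 transcript held 71.53% of Igf2 counts, and the next 2 held 13.83% and 13.25%. The Gnas share from upstream starts was 1.63% ± 0.137 in DKO and 1.94% ± 0.372 in WT of set 1, with overlap.

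Neighbours were correlated across libraries within each set for the 12 of 18 listed pairs with both genes measured, with p-values adjusted over the 12 pairs. In set 1 Igf2r and Airn, the antisense RNA of the paternal copy that silences it, had a Pearson r of 0.919 over 6 libraries (exact permutation test, two-sided, adjusted p = 0.033; Spearman's rho 0.943, adjusted p = 0.10), and 0.89 without the 2 libraries farthest from the median. In set 2 the same pair had r = 0.192 over 12 libraries (permutation test, adjusted p = 0.62; rho 0.112, adjusted p = 0.80). Mest and Copg2, which overlap by 912 bases at their ends, had rho 0.797 in set 2 (permutation test, adjusted p = 0.018) with r = 0.548 (adjusted p = 0.39). The Irx4KO libraries were the lowest of the set for Mest (1204 to 1330 CPM). Copg2 was at 164 to 167 CPM in Irx4KO and 178 to 190 CPM in Irx3KO. The permutations did not hold genotype fixed, so this rho may also follow the genotype. The other measured pairs, apart from Peg3 with Zim1, did not pass in either set.

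Peg3 and Zim1 followed the genotypes in set 2, so no r is given over its 12 libraries. Among the 6 Irx3KO and dHet libraries r was 0.973 (exact permutation test, two-sided, adjusted p = 0.0028; rho 1.0, adjusted p = 0.0056) and 0.955 without the 2 farthest libraries. Among the 6 Irx4KO and DKO libraries r was 0.36 (adjusted p = 0.48, exact permutation test; rho 0.0286, adjusted p = 1.0) and -0.678 without the 2 farthest. These 2 groupings were chosen after the values were seen, and the p-values are adjusted over them alone. The Zim1 ranges of Irx3KO and dHet do not overlap, so r there also follows the genotype. In set 1, r was 0.834 (exact permutation test, adjusted p = 0.13; rho 0.6, adjusted p = 0.72).

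**Figure D5:**
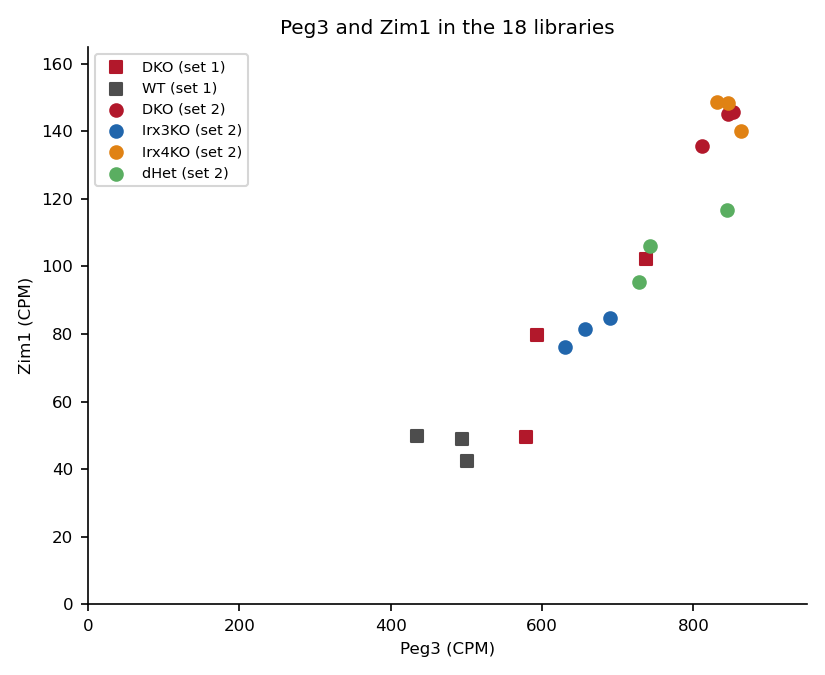
Zim1 against Peg3 in CPM in the 18 libraries, squares for set 1 and circles for set 2. The DKO and Irx4KO libraries of set 2 stand above those of Irx3KO and dHet in Zim1, and DKO 5 of set 1 lies at the Zim1 level of WT.

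Genes outside the 42 were examined by list. Of 40 other genes of imprinted domains, 28 were tested and 1 passed by edgeR in the 7 comparisons, in DKO against WT, where 1.58% of all genes passed. Klf14, a maternally expressed zinc finger gene, was at 6.68 ± 1.83 CPM in DKO and 2.82 ± 0.801 CPM in WT (1.24 ± 0.23, adjusted p = 0.0119). In Irx3KO against Irx4KO limma-voom called Dcn and Dlx5, and with the homozygous Irx4 label Ago2. That list also holds Nap1l1 and Herc3, a parent and a host of imprinted retrocopies. Of 19 genes of imprint maintenance and DNA methylation, 17 were tested, as were 3 parents of retrocopies. None of them passed by edgeR, DESeq2 or limma-voom in any of the 7 comparisons. At most 2 of the 17 and 1 of the 3 had an unadjusted p below 0.05 by edgeR in a comparison, beside 4.22% to 14.4% of all genes over the 7.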

How the data were processed

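RNA of 18 ventricle libraries was measured by polyA RNA-seq, made with a strand-preserving kit per the labels' protocols. The authors deposited estimated counts and TPM per transcript, per the file headers. Kallisto 0.42.2 and the genome mm9 are named in the submitters' processing notes. The transcript release is not given in the sources used here, nor is the strand setting. Of 88943 transcripts, 78030 (87.73%) matched GENCODE M21 (GRCm38) by identifier, and the rest, with 6.42% to 6.77% of the counts of a library, were left out. Because the submitters' genome differs, coordinates are those of RefSeq and GENCODE on GRCm38.

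Estimated counts were summed per gene and rounded. Genes with at least 0.5 CPM in 3 libraries were compared by edgeR 4.0.16 under R 4.3.3 (TMM, robust quasi-likelihood F test, prior count 0.125, adjusted p below 0.05), all 18 libraries in 1 fit with a term for each genotype and set. The common dispersion was 0.0202, and an SE is the log2 fold change divided by the square root of F. The pipeline was checked on simulated counts. The replicates of a group differed beyond sampling noise in all 18 pairs (chi-square per gene at least 6.469), which does not show that they are separate embryos. Correlations used log2(CPM + 0.5), with 100000 resamples for 12 libraries. Deposited TPM served for levels and for counts rebuilt in an alternative.

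The imprinted genes, the sets, the lists and the tests were chosen with earlier results of these data known. Values per library were given for genes past the threshold and for Igf2, Dlk1, Cdkn1c, Peg3 and Plagl1, and Zim1, Usp29, Rtl1 and Cd81 were added after their values were seen. Alternatives were RLE factors, DESeq2 1.42.0, limma-voom (limma 3.58.1), other filters, counts from TPM, the libraries of 1 set, genotype alone, a sex covariate, a replicate block, and leaving out each library. Removal of the length trend was added after the data were seen.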

Additional observations from a re-analysis of the deposited data

Results flagged for a closer look

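Gnas was at 1688.7 CPM in DKO 5, and at 1333.6 to 1382.2 CPM in the other 5 DKO libraries. The gap to the nearest library is 0.863 of the whole range, above the 95% critical value for 6 libraries (Dixon's test). It was the only 1 of 35 imprinted genes to pass this limit in DKO, and chance passes about 1 group in 20. The 6 libraries come from both sets, and the limit cannot be applied to 3 libraries. DKO 5 also stood apart over all genes (chi-square per gene of 65.8 and 63.9 against DKO 7 and 10), and its Spearman's rho of deviation with transcript length, -0.46, was the lowest of the 18 libraries. The part of these in the Gnas value was not tested.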

How the results depend on the processing

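None of the 7 called differences of imprinted genes turned its direction under any alternative, and differences that were not called were not followed. The counts of imprinted genes called, 3 in DKO against WT, 1 in DKO against Irx3KO, 3 with the homozygous Irx4 label and 0 elsewhere, moved as follows, and the cause was not tested. With DESeq2 there were 5 in DKO against WT, 2 in DKO against dHet, 4 in DKO against Irx3KO, 5 in Irx3KO against Irx4KO and 5 with the Irx4 label. With only the libraries of the set, these were 0, 3, 4, 4 and 5, and Irx4KO against dHet had 1. With limma-voom, DKO against Irx3KO had 4, Irx3KO against Irx4KO 9 and the Irx4 label 5. With genotype as the only term, DKO against dHet had 2 and DKO against Irx3KO 2. In DKO against Irx3KO there were 2 with a filter of 1 CPM, 0 with no filter, 0 with the sex covariate and 4 with the length trend removed. In Irx3KO against Irx4KO the filter of 1 CPM gave 1 and the removed length trend 2. Leaving out 1 library gave 0 to 4 in DKO against WT, 0 to 0 in DKO against Irx3KO and 1 to 4 with the Irx4 label.

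Replicate numbers are shared in set 2, but same-numbered libraries correlated at -0.304 to 0.134 in 15 pairs. Of 12 libraries 1 correlated best with its own number, and Irx3KO 1, which shares its number with no other library of the set, could not. A pairing of the samples by number was thus not seen, which does not show that there is none. The replicate block called 2 in DKO against Irx3KO (Peg3 and Zim1), 1 in Irx3KO against Irx4KO and 4 with the Irx4 label. No paired analysis was possible in set 1 because WT and DKO share no number. Counts over all genes ran from 13 (only the libraries of the set) to 603 (DESeq2) in DKO against WT (243), 16 to 290 in DKO against Irx3KO (69), 12 to 844 in Irx3KO against Irx4KO (47) and 67 to 467 with the Irx4 label (137). In the other comparisons they ran from 3 to 314 in DKO against dHet (15), 1 to 12 in Irx3KO against dHet (1), 0 to 33 in Irx4KO against dHet (2), 1 to 26 in DKO against Irx4KO (4) and 2 to 57 with the Irx3 label (4). The 24 correlation settings were the Pearson r of the 12 pairs in set 2, with RLE factors and with 2 CPM added in place of 0.5. None changed a call, and the only pair called there was Peg3 with Zim1. Spearman's rho and the correlations of set 1 were not repeated with these settings. Depth limits Rtl1, Usp29, Magel2, Nap1l5 and Slc22a3, with 10 to 108 counts in a library.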
